A study of Mus musculus with 16 samples.

Results

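Messenger RNA of 7 inhibitory checkpoint receptors was described in CD8+ T cells isolated by flow sorting of marrow from mice with immune bone marrow failure. The genes were Pdcd1, Lag3, Havcr2, Tigit, Ctla4, Cd160 and Btla, chosen by name from the count table, which held 24394 genes. All 7 were among the 14862 genes that passed the filter on low counts. In bone marrow failure (BMF) the immune system destroys marrow cells. It had been induced in every animal studied, and no healthy control was among the groups. BAR libraries came from mice that also received baricitinib, a small molecule that blocks JAK1 and JAK2, kinases that carry cytokine signals, and BMF libraries came from mice without the drug. There were 3 BAR and 3 BMF libraries at day 14 after induction, and 5 BAR and 5 BMF libraries at day 10. The labels give no strain, genotype, sex, age, dose or route, and they mention pooled cells without saying which animals went into a pool. Whether each library was a different animal or pool is not recorded, and the spread behind every p-value may therefore be technical.

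Checkpoint receptors are membrane proteins that restrain a T cell once it has met its antigen. Most of them rise on activation and stay high on T cells that face antigen for a long time, a state called exhaustion, but activated effector cells carry them too. Each needs a ligand on another cell, and several share that ligand with a molecule that activates: CTLA-4 with the receptor CD28, TIGIT with the receptor CD226, and CD160 and BTLA with the cytokine LIGHT. The question the design poses for them is whether blocking JAK1 and JAK2 changes their RNA, and whether it does so alike at both days.

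The count table names genes by symbol, and positions come from the GENCODE annotation of build GRCm38. Pdcd1 lies on chromosome 1 from 94038305 to 94052553 (minus strand), and Ctla4 lies on chromosome 1 from 60887000 to 60915832 (plus strand). Lag3 lies on chromosome 6 from 124904361 to 124911705 (minus strand), and Havcr2 lies on chromosome 11 from 46454935 to 46481255 (plus strand). Tigit lies on chromosome 16 from 43648867 to 43664146 (minus strand), and Btla lies on chromosome 16 from 45224315 to 45257670 (plus strand). Cd160 lies on chromosome 3 from 96798763 to 96829351 (minus strand). The counts are per gene, so isoforms were not told apart.

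Libraries held between 26066991 and 58659873 counts, and a receptor had between 982 and 52718 counts in any one of them, so counting error was small beside the spread between libraries. Levels are CPM, counts relative to a library's total, scaled by TMM, a correction for library composition, and values after ± are SDs. The T cell identity of the sort was visible: Cd8a averaged 657 ± 59.3 CPM in BAR libraries and 832 ± 131 CPM in BMF libraries at day 14 (n = 3 each), and Cd4 stayed between 0.835 and 3.43 CPM in all group means. Genes of other marrow cells were present as well, most of all at day 14, when 12 neutrophil markers summed to 38107 to 50111 CPM in BAR libraries, against 2736 to 21641 CPM in BMF libraries. Monocyte and macrophage markers likewise summed to 3576 to 4404 CPM in BAR libraries and 464 to 1589 CPM in BMF libraries at day 14, while the 8 CD8 T cell markers summed to 5755 to 6457 CPM in BAR libraries and 7243 to 8745 CPM in BMF libraries. Each of these sums gave an exact two-sided permutation p of 0.1, the smallest that 3 against 3 libraries allow. In bulk RNA, fewer cells of a type and less RNA per cell cannot be told apart. At day 10 the share of counts on Rn45s, the ribosomal RNA precursor, was 1.22% to 1.43% in BAR libraries and 1.15% to 5.81% in BMF libraries.

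**Figure D1:**
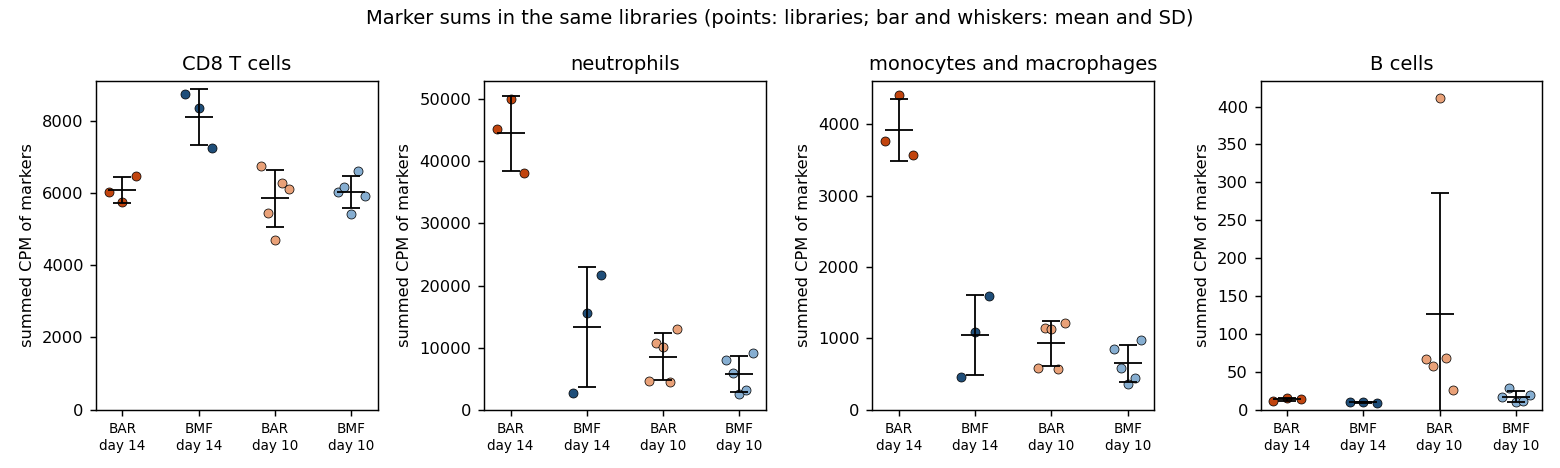
Summed CPM of marker genes (vertical axes) in each library for CD8 T cells, neutrophils, monocytes and macrophages, and B cells, in the 4 groups; points are libraries and the bar with whiskers is the mean and SD (n = 3 per group at day 14, n = 5 at day 10). Neutrophil sums of the 3 BAR libraries at day 14 start at 38107 CPM and lie above every other library, and 1 BAR library at day 10 reaches 411 CPM of B cell markers.

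Cd160, Ctla4 and Tigit carried the largest changes among the receptors for which a promoter sequence was at hand, and their promoter windows are shown so that these genes can be read beside the values. RefSeq windows of 300 bases, from 250 before to 50 after a gene start on the gene's strand, were matched by symbol for 6 of the 7 receptors, 7 windows in all, on build GRCm38.p6. Capitals mark letters that match 1 of 7 motifs, searched on both strands: the STAT motif TTCNNNGAA, a STAT motif with a longer spacer, a motif like the interferon-stimulated response element, the NFAT motif TGGAAA, the AP-1 motif TGANTCA, the RUNX motif AACCACA and the T-box motif AGGTGTGA. The Cd160 windows are at chr3:96829302-96829601 and chr3:96814472-96814771, both on the minus strand, the Ctla4 window is at chr1:60908775-60909074 on the plus strand, and the Tigit window is at chr16:43664135-43664434 on the minus strand.
Cd160, upstream start: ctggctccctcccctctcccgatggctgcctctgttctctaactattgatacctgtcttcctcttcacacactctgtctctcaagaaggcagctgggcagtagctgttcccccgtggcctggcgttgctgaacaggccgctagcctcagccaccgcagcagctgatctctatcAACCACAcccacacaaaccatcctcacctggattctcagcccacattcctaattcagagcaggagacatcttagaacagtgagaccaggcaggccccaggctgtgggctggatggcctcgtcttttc
Cd160, downstream start: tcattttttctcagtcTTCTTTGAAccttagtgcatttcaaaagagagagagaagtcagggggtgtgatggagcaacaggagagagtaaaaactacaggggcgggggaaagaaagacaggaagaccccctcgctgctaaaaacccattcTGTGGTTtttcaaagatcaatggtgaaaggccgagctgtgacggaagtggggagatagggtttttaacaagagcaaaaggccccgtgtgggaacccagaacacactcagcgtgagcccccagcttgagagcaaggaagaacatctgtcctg
Ctla4: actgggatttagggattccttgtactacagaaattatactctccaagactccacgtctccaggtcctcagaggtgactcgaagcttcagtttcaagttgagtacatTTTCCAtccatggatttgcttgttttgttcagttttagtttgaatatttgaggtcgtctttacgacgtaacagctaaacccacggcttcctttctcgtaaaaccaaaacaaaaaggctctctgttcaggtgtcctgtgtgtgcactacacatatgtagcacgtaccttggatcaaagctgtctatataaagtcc
Tigit: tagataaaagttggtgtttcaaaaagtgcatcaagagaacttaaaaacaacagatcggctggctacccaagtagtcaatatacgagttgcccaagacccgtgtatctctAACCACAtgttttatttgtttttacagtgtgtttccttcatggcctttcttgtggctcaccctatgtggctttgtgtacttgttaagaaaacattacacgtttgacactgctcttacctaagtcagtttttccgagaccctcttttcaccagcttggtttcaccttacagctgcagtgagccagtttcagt

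The RUNX motif stood in windows of 4 of the 6 receptors (Btla, Cd160, Havcr2 and Tigit), and in 5.27% of all 32851 RefSeq windows of that length. Both Cd160 windows held it, beginning 77 bases before the upstream start and 101 bases before the downstream start. TTCNNNGAA, which reads the same on both strands, occurred in the downstream Cd160 window alone among the receptors and in 8.30% of all windows. TGGAAA occurred in the Ctla4 window alone among them and in 21.4% of all windows, and TGANTCA in the Havcr2 window alone and in 7.81%. The remaining motifs, the longer STAT motif (6.95% of all windows), the interferon-type motif (3.44%) and AGGTGTGA (1.28%), were in none of the 7 windows, and no motif overlapped another in them. The motifs were picked after the expression values had been seen, and a match of letters is a description, not a binding site.

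The receptors differed widely in abundance, and the order changed between the days. Divided by exon length, Tigit and Pdcd1 led every group, Lag3, Cd160 and Havcr2 followed, and Ctla4 and Btla were lowest. The lengths were those of GENCODE, 919 bases for Tigit and 1930 for Pdcd1, while the annotation used for counting is not known. In CPM without this division Pdcd1 lay above Tigit throughout, with 575 to 886 against 166 to 504 CPM over all libraries. The lead of Tigit at day 14 therefore depends on these lengths. At day 14 Tigit led with 461 ± 56.9 CPM per kilobase in BAR libraries and 467 ± 74.5 in BMF libraries (n = 3 each), ahead of Pdcd1 with 359 ± 50.4 in BAR libraries and 389 ± 4.30 in BMF libraries. In BAR libraries these leaders overlapped, with Tigit above Pdcd1 in 2 of 3 libraries, whereas in BMF libraries they did not. At day 10 Pdcd1 led with 389.6 ± 59.0 CPM per kilobase in BAR libraries and 328 ± 32.2 in BMF libraries (n = 5 each), and Tigit followed with 297 ± 54.3 in BAR libraries and 258 ± 46.1 in BMF libraries. Pdcd1 was above Tigit in 5 of 5 libraries of each arm, although the ranges overlapped in the BAR group.

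Cd160 took a different rank in each arm at day 14. In BMF libraries it stood next to Lag3, with 107 to 149.9 against 128 to 183 CPM per kilobase and overlapping ranges, and above Havcr2 in 3 of 3 libraries. In BAR libraries it stood below Havcr2 in 3 of 3 libraries, with 58.4 ± 13.6 against 71.5 ± 8.01 CPM per kilobase, although those ranges overlapped. Ctla4 and Btla had 11.9 ± 1.73 and 8.01 ± 0.798 CPM per kilobase in BAR libraries at day 14, and 12.5 ± 1.14 and 9.51 ± 1.89 in BMF libraries.

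The make-up of the receptor RNA can be read without the rest of the library, as each gene's share of the summed CPM per kilobase of the 7 receptors. Cd160 held 4.95% ± 1.04 of that sum in BAR libraries and 10.8% ± 2.42 in BMF libraries at day 14 (n = 3 each). At day 10 it held 7.47% to 8.41% in BAR libraries and 10.1% to 11.5% in BMF libraries, ranges that did not overlap. Lag3 held 17.5% ± 2.79 in BAR libraries and 12.2% ± 1.56 in BMF libraries at day 14, and 9.97% ± 0.360 in BAR libraries and 10.3% ± 0.709 in BMF libraries at day 10. Ctla4 held 1.01% ± 0.142 in BAR libraries and 1.03% ± 0.124 in BMF libraries at day 14, and 2.84% ± 0.777 in BAR libraries and 4.47% ± 1.04 in BMF libraries at day 10. These shares are descriptions, since a change in any receptor moves the shares of the others.

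**Figure D2:**
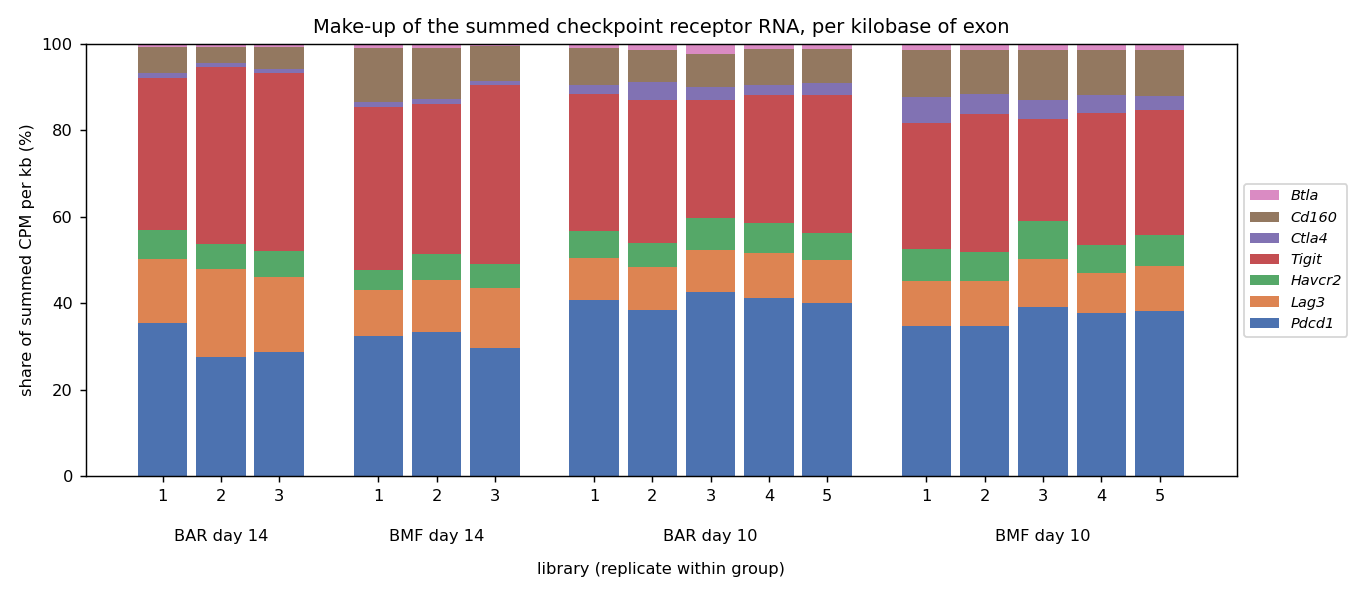
Share of each receptor gene in the summed CPM per kilobase of exon of the 7 receptors (vertical axis, percent), 1 bar per library, grouped as BAR and BMF at day 14 and BAR and BMF at day 10. The Cd160 segment averages 4.95% in BAR and 10.8% in BMF at day 14, and the Ctla4 segment is widest in BMF at day 10 with 4.47%.

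At day 14, Cd160 was the receptor that differed most between the arms, and it was lower with baricitinib. CD160 binds HVEM, the product of Tnfrsf14, and marks cytotoxic lymphocytes. It had 180.3, 113 and 169 CPM in the 3 BAR libraries, against 396, 363 and 283 CPM in the 3 BMF libraries. Every BAR library lay below every BMF library, a separation that 43.3% of all genes tested also showed, 21.5% in the lower direction. Its log2 fold change was -1.17 (SE 0.186, edgeR quasi-likelihood test with Benjamini-Hochberg adjustment, adjusted p = 0.000422), and 2.42% of the genes tested had a lower value. Cd160 remained called under all 13 alternatives, with log2 values from -1.29 to -0.79 and adjusted p from 7.15e-09 to 0.00781. Counts do not state strand, and Cd160 (chromosome 3, 96798763 to 96829351, minus strand) shares exon bases with Pdzk1 on the plus strand, which had 3.32 to 7.02 CPM per library.

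Natural killer cells also express Cd160. Their 9 markers summed to 219.7 to 275 CPM in BAR libraries and 58.7 to 131 CPM in BMF libraries at day 14, a sum that was mostly Tyrobp, which myeloid cells share. Ncr1, a defining marker, was at 0.173 ± 0.141 CPM in BAR libraries and 0.0507 ± 0.0282 CPM in BMF libraries, and Klra8 and Klra4 were listed at 0 in all libraries. Klre1 had 13.1 ± 2.38 CPM in BAR libraries and 22.7 ± 5.33 CPM in BMF libraries (log2 -0.80, edgeR adjusted p = 0.0128). Klrb1c had 0.303 ± 0.132 CPM in BAR libraries and 2.23 ± 1.71 CPM in BMF libraries (log2 -2.86, edgeR adjusted p = 0.00859). These 2 markers were called lower together with Cd160, none of the list was called higher, and their part in the Cd160 result was not tested.

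Lag3 was the only receptor called higher in BAR libraries at day 14, and its call was fragile. LAG-3 binds MHC class II. It had 359.9, 479 and 463 CPM in BAR libraries, against 269, 293 and 386 CPM in BMF libraries. The arms overlapped, since the highest BMF library stood above the lowest BAR library. The log2 fold change was 0.46 (SE 0.153, edgeR adjusted p = 0.0358). It was above 0 under all 13 alternatives but missed the threshold in 6 of them, with adjusted p up to 0.162. Among these were 4 single libraries: without BAR replicate 2 it was 0.38 (adjusted p = 0.153), without BAR replicate 3 0.41 (0.112), without BMF replicate 1 0.36 (0.162) and without BMF replicate 2 0.40 (0.140).

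The other 5 receptors did not pass the test at day 14. Pdcd1, which encodes PD-1, had 789.6, 595 and 696 CPM in BAR libraries, against 745, 745 and 759 CPM in BMF libraries (log2 -0.11, SE 0.132, edgeR adjusted p = 0.572), so the BMF libraries lay inside the BAR range. Havcr2, which encodes the galectin-9 receptor TIM-3, averaged 194 ± 21.8 CPM in BAR libraries and 179 ± 23.0 CPM in BMF libraries (n = 3 each, log2 0.12, edgeR adjusted p = 0.572). Tigit averaged 423 ± 52.3 CPM in BAR libraries and 429 ± 68.5 CPM in BMF libraries (log2 -0.02). Ctla4 averaged 27.7 ± 4.04 CPM in BAR libraries and 29.1 ± 2.67 CPM in BMF libraries (log2 -0.07), and Btla averaged 27.2 ± 2.71 CPM in BAR libraries and 32.3 ± 6.43 CPM in BMF libraries (log2 -0.25). Their adjusted p ran from 0.313 to 0.973, and in all 5 genes the arms overlapped.

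Across the 7 receptors, 1 was called higher and 1 lower at day 14, where 25.2% of all genes tested were called, 12.9% higher and 12.2% lower. The receptors' share, 28.6%, was close to this background. The median log2 value of the 7 was -0.07, beside -0.01 over all genes tested. Scaling the libraries on the summed counts of Cd3d, Cd3e, Cd3g, Cd247, Cd8a and Cd8b1 in place of TMM shifted the median of all genes to 0.34 and made 95.9% of the called genes higher, against 51.4% with TMM. On that scale Cd160 stayed lower (-0.79, adjusted p = 0.000407), Lag3 was at 0.81 (adjusted p = 0.00179), Havcr2 passed the threshold at 0.47 (adjusted p = 0.0267), and Pdcd1 (0.25), Tigit (0.34), Ctla4 (0.30) and Btla (0.14) turned to positive values without passing. Relative to that shift the values were -1.14 for Cd160, 0.47 for Lag3, 0.13 for Havcr2, -0.09 for Pdcd1, -0.01 for Tigit, -0.05 for Ctla4 and -0.20 for Btla. A change of scale moves all genes by about the same amount, so these values lie near the TMM values by construction. They are no separate check of the calls.

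**Figure D3:**
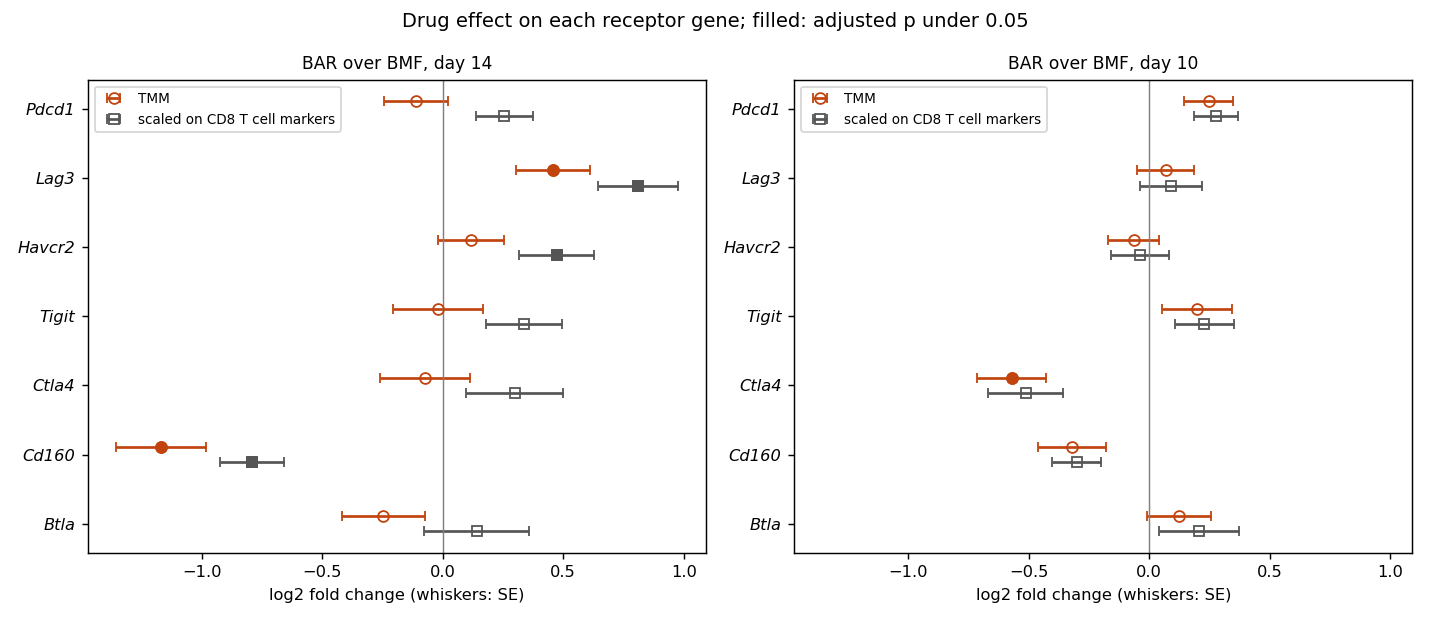
Log2 fold change of BAR over BMF (horizontal axis, whiskers SE) for each receptor gene at day 14 and at day 10, with libraries scaled by TMM (circles) and on CD8 T cell markers (squares); filled symbols have an adjusted p under 0.05. Cd160 is lower at day 14 on both scales (-1.17 and -0.79), whereas Pdcd1, Tigit, Ctla4 and Btla change sign between the scales at day 14, and Ctla4 at day 10 is filled with TMM alone.

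At day 10, Ctla4 was the receptor called between the arms, and it was lower with baricitinib. CTLA-4 competes with CD28 for CD80 and CD86. It had 58.0, 81.9, 54.0, 53.5 and 62.3 CPM in BAR libraries, against 120.4, 102, 78.7, 87.5 and 70.9 CPM in BMF libraries. Replicate 2 of BAR reached into the BMF range, while the other 4 BAR libraries lay below all BMF libraries. The log2 fold change was -0.57 (SE 0.144, edgeR adjusted p = 0.0173). The call held without any single library, with adjusted p from 0.00467 to 0.0476, but it was lost with Rn45s as a covariate (-0.26, adjusted p = 0.664) and without the 3 BMF libraries richest in Rn45s, an omission chosen after seeing the data (-0.37, adjusted p = 0.322). It was also lost on the T cell marker scale (-0.51, adjusted p = 0.0686).

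Regulatory T cells carry much Ctla4 RNA. At day 10 the 7 markers listed for regulatory and other CD4 T cells summed to 177 ± 12.7 CPM in BAR libraries and 246 ± 41.1 CPM in BMF libraries (n = 5 each, exact two-sided permutation p = 0.00794, adjusted p = 0.0291), with 1 marker called higher and 2 lower. Those lower were Il2ra (log2 -1.16) and Ikzf2 (log2 -0.50), which activated CD8 T cells also express. The defining genes were near 0: Foxp3 had 3.33 ± 1.12 CPM in BAR libraries and 2.52 ± 0.742 CPM in BMF libraries (log2 0.41, edgeR adjusted p = 0.291), and Cd4, the marker called higher, had 3.43 ± 1.76 CPM in BAR libraries and 0.994 ± 0.275 CPM in BMF libraries. The part of such cells in the Ctla4 result was not tested.

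Pdcd1 and Cd160 leaned in opposite directions at day 10 without passing the test. Pdcd1 had 886, 637, 634, 831 and 772 CPM in BAR libraries, against 579, 627, 575, 665 and 723 CPM in BMF libraries (log2 0.25, SE 0.102, edgeR adjusted p = 0.112). Without BMF replicate 5, its highest BMF library, it passed (0.31, adjusted p = 0.0371). Cd160 had 251, 169.8, 154, 230.1 and 208 CPM in BAR libraries, against 249, 249.8, 231, 254 and 281 CPM in BMF libraries (log2 -0.32, SE 0.143, edgeR adjusted p = 0.142). In both genes the arms overlapped, although 4 of 5 BAR libraries of Cd160 lay below every BMF library.

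The remaining receptors did not pass the test at day 10, with adjusted p from 0.381 to 0.730. Lag3 averaged 202 ± 32.3 CPM in BAR libraries and 193 ± 15.3 CPM in BMF libraries (n = 5 each, log2 0.07, SE 0.118), and Havcr2 averaged 169 ± 28.6 CPM in BAR libraries and 176 ± 11.9 CPM in BMF libraries (log2 -0.06, SE 0.106). Tigit averaged 272 ± 49.9 CPM in BAR libraries and 237 ± 42.4 CPM in BMF libraries (log2 0.20, SE 0.145). Btla, the second receptor for HVEM, averaged 44.7 ± 10.0 CPM in BAR libraries and 41.0 ± 3.81 CPM in BMF libraries (log2 0.12, SE 0.132). Its highest value, 62.4 CPM, belonged to BAR replicate 3, the library with 411 CPM of B cell markers, and B cells express Btla. Across the 7 receptors, 1 was called lower, where 14.4% of all genes were called and 7.94% were lower. None was called higher by edgeR, DESeq2 or limma voom, where edgeR called 6.49% of all genes higher, and at an unadjusted p under 0.05 edgeR put 1 higher and 2 lower. No receptor separated the arms without overlap, as 7.91% of all genes did (3.8% higher and 4.11% lower), and the median log2 value was 0.07, beside 0.00 over all genes.

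**Figure D4:**
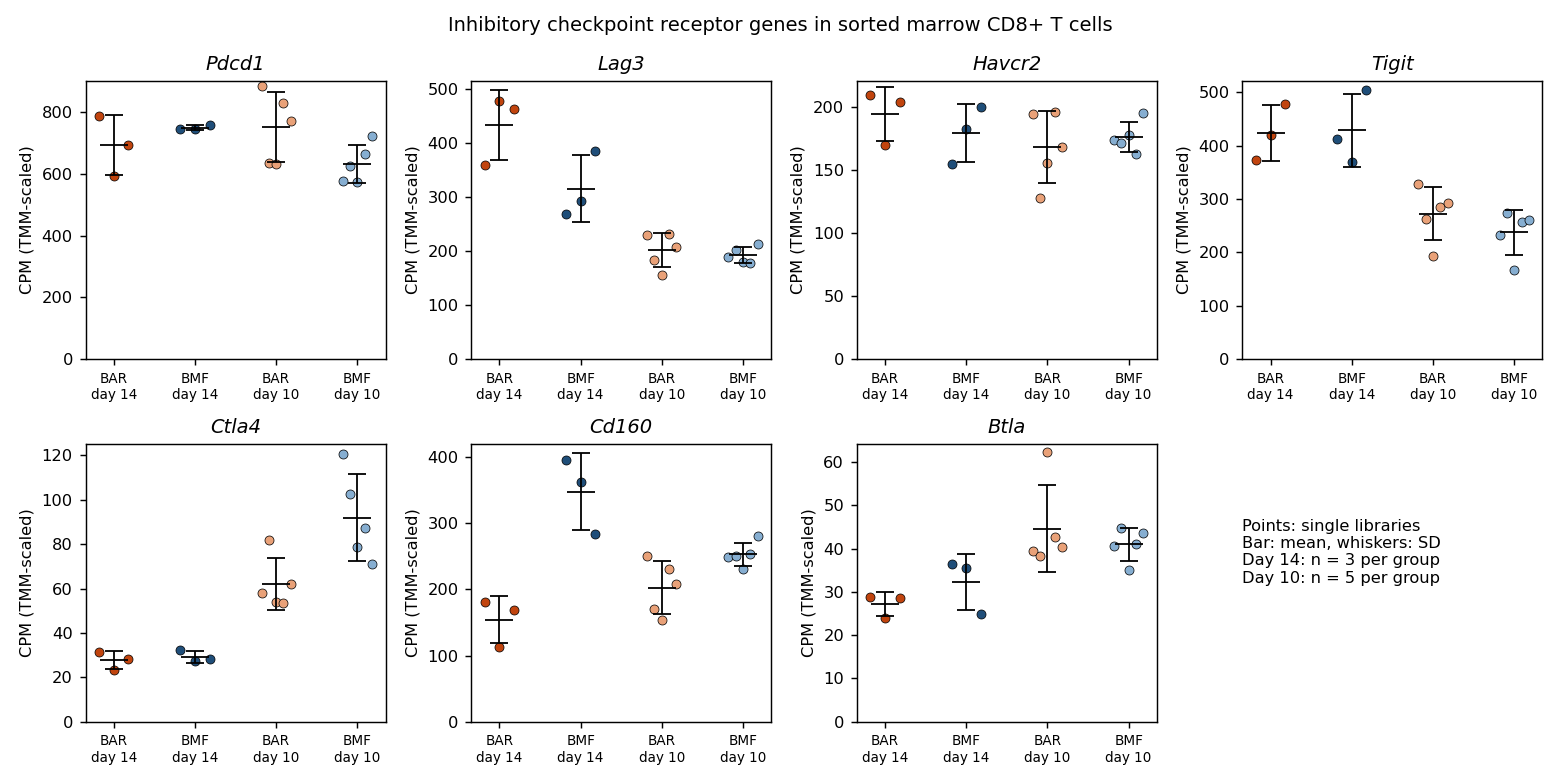
CPM (vertical axes, TMM-scaled) of the 7 receptor genes in every library of the 4 groups; points are libraries, the bar is the mean and whiskers are SDs (n = 3 per group at day 14, n = 5 at day 10). Cd160 separates the arms at day 14 (113 to 180.3 CPM in BAR, 283 to 396 CPM in BMF), and Lag3, Tigit and Ctla4 separate the days in both arms.

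The drug effect on Cd160 differed between the days. The effect at day 14 minus that at day 10 was -0.85 on the log2 scale (SE 0.233, edgeR interaction test, adjusted p = 0.0302), where 10.3% of all genes tested were called, 5% in the higher and 5.33% in the lower direction. It kept its sign under all 23 alternatives and missed the threshold in 5. These were the T cell marker scale (-0.49, adjusted p = 0.0674), omission of the 3 BMF libraries at day 10 richest in Rn45s (-0.77, adjusted p = 0.191), and omission of BAR day 14 replicate 2 (-0.68, 0.0691), BMF day 14 replicate 1 (-0.76, 0.0827) or BMF day 14 replicate 2 (-0.82, 0.0834).

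No other receptor passed this test. The difference of effects was 0.39 for Lag3 (SE 0.193, edgeR adjusted p = 0.213), 0.50 for Ctla4 (SE 0.236, adjusted p = 0.194), -0.36 for Pdcd1 (SE 0.167, adjusted p = 0.178) and -0.37 for Btla (SE 0.217, adjusted p = 0.297). Ctla4 was thus called at day 10 and not at day 14, and Lag3 at day 14 and not at day 10, without a difference between the days that passed. On the T cell marker scale Lag3 reached 0.72 (edgeR adjusted p = 0.0377). That scale moved the median of all genes to 0.34 and made 92.4% of the called genes higher. Relative to the all-gene median Lag3 was at 0.38 there and at 0.37 with TMM, values that are alike by construction. The median over the receptors with TMM was -0.22, beside 0.02 over all genes.

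Between day 10 and day 14 the receptors moved apart. Lag3 and Tigit rose and Ctla4 fell in both arms, Btla fell in BAR libraries, and Cd160 rose in BMF libraries with TMM but not on the T cell marker scale. Each of these contrasts shares its libraries with the drug comparisons, and the labels give no batch, so day and any batch cannot be told apart.

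Lag3 showed the largest rise in BAR libraries. Its day 14 values of 359.9 to 479 CPM in BAR libraries stood above the 156 to 232 CPM of BAR libraries at day 10 (log2 1.10, SE 0.134, edgeR adjusted p = 1.29e-05). In BMF libraries it had 269 to 386 CPM at day 14 and 177.9 to 214 CPM at day 10 (log2 0.71, SE 0.134, edgeR adjusted p = 0.000632), a call that the T cell marker scale ended (0.28, adjusted p = 0.108). The days did not overlap in either arm.

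Tigit, whose ligand CD155 is the product of Pvr, rose alongside. It had 373, 419.7 and 477 CPM in BAR libraries at day 14, against 328, 262, 194, 285 and 293 CPM at day 10 (log2 0.64, SE 0.165, edgeR adjusted p = 0.00716). In BMF libraries it had 412, 370.0 and 504 CPM at day 14, against 232, 273, 166, 256 and 260.1 CPM at day 10 (log2 0.85, SE 0.165, edgeR adjusted p = 0.000940). All day 14 libraries lay above all day 10 libraries of the same arm.

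Ctla4 fell most. Day 14 values were 23.4 to 31.5 CPM in BAR libraries, against 53.5 to 81.9 CPM at day 10 (log2 -1.16, SE 0.174, edgeR adjusted p = 0.000127). In BMF libraries they were 27.2 to 32.2 CPM at day 14, against 70.9 to 120.4 CPM at day 10 (log2 -1.66, SE 0.178, edgeR adjusted p = 9.65e-06). The days were far apart in both arms, and at day 14 the arms overlapped, with 27.7 ± 4.04 CPM in BAR libraries and 29.1 ± 2.67 CPM in BMF libraries.

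Btla fell in BAR libraries, with 28.9, 24.1 and 28.6 CPM at day 14, against 39.5, 38.4, 62.4, 42.8 and 40.3 CPM at day 10 (log2 -0.72, SE 0.157, edgeR adjusted p = 0.00217). Over the 8 single omissions the value ran from -0.77 to -0.58 with adjusted p up to 0.0183. The B cell marker sum was lower at day 14 as well, with 11.3 to 15.9 CPM in BAR libraries, against 26.3 to 411 CPM at day 10, and its part in the Btla result was not tested. In BMF libraries Btla had 36.5, 35.4 and 24.9 CPM at day 14, against 40.6, 44.9, 35.0, 41.0 and 43.6 CPM at day 10 (log2 -0.35, edgeR adjusted p = 0.0863), and the days overlapped. It passed on the T cell marker scale (-0.81, adjusted p = 0.00269).

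Cd160 rose in BMF libraries, with 283 to 396 CPM at day 14 and 231 to 281 CPM at day 10 (log2 0.46, SE 0.163, edgeR adjusted p = 0.0354). The days did not overlap. Of 16 alternatives, 8 kept the direction without passing, among them the omission of any 1 of BMF day 10 replicates 1 to 4 or BMF day 14 replicates 1 and 2 (0.36 to 0.46, adjusted p 0.0509 to 0.142), and the T cell marker scale turned the value to -0.01 (adjusted p = 0.971). In BAR libraries it had 113 to 180.3 CPM at day 14 and 154 to 251 CPM at day 10 (log2 -0.39, SE 0.167, edgeR adjusted p = 0.0712), and it passed in 5 of 15 alternatives. These were DESeq2 (adjusted p = 0.0398), the T cell marker scale (-0.50, adjusted p = 0.00543), and omission of BAR day 10 replicate 2 (-0.45, 0.0484), BAR day 10 replicate 3 (-0.49, 0.0202) or BAR day 14 replicate 1 (-0.53, 0.0433). Pdcd1 had a log2 value of -0.12 in BAR libraries (edgeR adjusted p = 0.453) and 0.24 in BMF libraries (adjusted p = 0.108, but -0.20 on the T cell marker scale, and adjusted p = 0.0380 with these groups alone). Havcr2 had 0.21 in BAR libraries and 0.02 in BMF libraries (-0.41, adjusted p = 0.0190, on the T cell marker scale).

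In BAR libraries 2 receptors were called higher and 2 lower at day 14, where 39.1% of all genes were called, 19.2% higher and 19.8% lower. Of the receptors, 2 higher and 2 lower separated the days without overlap, as did 41.3% of all genes, 20.1% higher and 21.2% lower. In BMF libraries 3 were called higher and 1 lower, where 38.5% of all genes were called, 17.6% higher and 20.9% lower. There 4 higher and 1 lower separated the days without overlap, as did 36.7% of all genes, 17.1% higher and 19.6% lower. The median of the receptors was -0.12 in BAR libraries and 0.24 in BMF libraries, beside -0.04 and -0.05 over all genes. The T cell marker scale moved the all-gene median to -0.16 in BAR libraries and to -0.49 in BMF libraries, and left 27.2% and 3.07% of called genes higher, against 49.2% and 45.8% with TMM. Relative to that shift the BMF values were 0.78 for Lag3, 0.92 for Tigit, -1.61 for Ctla4, 0.49 for Cd160 and -0.32 for Btla. Pdcd1 was at 0.29 and Havcr2 at 0.08 by the same measure. Values taken against the all-gene median lie near those with TMM by construction, so they are no separate check.

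**Figure D5:**
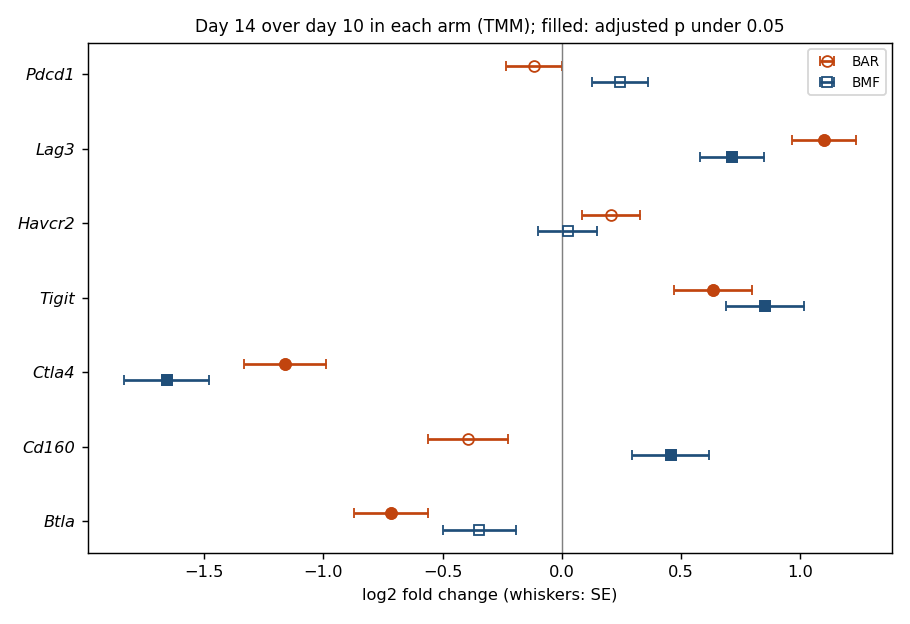
Log2 fold change of day 14 over day 10 (horizontal axis, TMM scaling, whiskers SE) for each receptor gene in BAR libraries (circles) and BMF libraries (squares); filled symbols have an adjusted p under 0.05. Lag3 and Tigit are higher and Ctla4 lower at day 14 in both arms, while Cd160 is called in BMF alone (0.46, but -0.01 when libraries are scaled on CD8 T cell markers).

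Genes for the ligands were measured in the same libraries, whatever cell they came from. Of 14 ligand genes, 13 were found in the count table and 11 passed the filter on low counts. At day 14 there were 3 called higher and 3 lower in BAR libraries. With TMM 12.9% of all genes tested were called higher and 12.2% lower. On the T cell marker scale 5 ligand genes were called higher and 0 lower, where 30.6% of all genes were higher and 1.31% lower. Tnfrsf14, the HVEM ligand of CD160 and BTLA, had 9.21 ± 1.87 CPM in BAR libraries and 2.80 ± 0.692 CPM in BMF libraries (n = 3 each, log2 1.71, edgeR adjusted p = 0.000260). Cd274, which encodes the PD-1 ligand PD-L1, had 33.2 ± 3.28 CPM in BAR libraries and 18.5 ± 1.21 CPM in BMF libraries (log2 0.84, edgeR adjusted p = 0.000904). Lgals9, which encodes galectin-9, was higher as well (log2 0.65, edgeR adjusted p = 0.00302). Neutrophil and monocyte marker sums were higher in the same libraries, and their part in these values was not tested.

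The CTLA-4 ligands went the other way at day 14. Cd80 had 5.69 ± 1.44 CPM in BAR libraries and 11.1 ± 1.46 CPM in BMF libraries (n = 3 each, log2 -0.96, edgeR adjusted p = 0.00122; -0.58 and adjusted p = 0.0554 on the T cell marker scale). Cd86 had a log2 value of -0.38 (edgeR adjusted p = 0.0123), which was 0.00336 on the T cell marker scale, and Hmgb1, a TIM-3 ligand, -0.28 (adjusted p = 0.0364), which was 0.10 there. At day 10 there were 3 ligand genes called higher and 2 lower, where 6.49% of all genes tested were called higher and 7.94% lower. Lgals9 (0.78, edgeR adjusted p = 0.000394), Cd86 (0.49, adjusted p = 0.00102) and Tnfrsf14 (0.64, adjusted p = 0.0444) were higher, and Cd80 (-0.69, adjusted p = 0.00595) and Pdcd1lg2 (-0.42, adjusted p = 0.0492) lower. The drug effect differed between the days for Cd86 (-0.87, edgeR interaction adjusted p = 0.000825), Cd274 (1.17, adjusted p = 0.00165), Hmgb1 (-0.44, adjusted p = 0.0243) and Tnfrsf14 (1.08, adjusted p = 0.0457). On the T cell marker scale the day 10 calls of Tnfrsf14 and Pdcd1lg2 and the differences for Cd86 and Hmgb1 did not pass.

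Genes for further molecules were read beside them. These were the receptors Cd226, Cd96 and Cd28, which share ligands with TIGIT or CTLA-4. Also included were the receptor Icos, which has a ligand of its own, and the cytokines Tnfsf14 and Lta. Of these 6, 3 were called lower and 0 higher at day 14, where 12.2% of all genes tested were lower with TMM. On the T cell marker scale 1 was lower, Cd226, where 1.31% of all genes were lower. Cd226, the activating rival of TIGIT, had 138 ± 18.5 CPM in BAR libraries and 256 ± 51.8 CPM in BMF libraries (n = 3 each, log2 -0.89, edgeR adjusted p = 0.000477). Also lower with TMM were Cd28 (-0.42, adjusted p = 0.0278, but -0.04 on the T cell marker scale) and Cd96 (-0.30, adjusted p = 0.0215, but 0.07 on the T cell marker scale). At day 10, Icos, a relative of Cd28, had 76.7 CPM (60.9 to 89.5) in BAR libraries and 114 CPM (104 to 126) in BMF libraries (n = 5 each, log2 -0.57, edgeR adjusted p = 0.00175), and Tnfsf14, which encodes LIGHT, was lower (-0.46, adjusted p = 0.0372; 0.212 on the T cell marker scale).

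Among 14 intracellular partners of the receptors, 1 was called higher and 7 lower in BAR libraries at day 14, and 2 lower at day 10, where TMM gave 12.9% of all genes higher and 12.2% lower at day 14, and 6.49% and 7.94% at day 10. The one called higher was Ptpn6, which encodes the phosphatase SHP-1 and is abundant in myeloid cells (log2 0.50, edgeR adjusted p = 0.0152). Lower genes included Ubash3a (-0.46, adjusted p = 0.00179), Csk (-0.43, adjusted p = 0.00197) and Sit1 (-0.69, adjusted p = 0.00334). On the T cell marker scale 4 of the 14 were called higher and 0 lower at day 14. There 30.6% of all genes were called higher and 1.31% lower. At day 10 that scale called 0 of the 14, where 1.86% of all genes were higher and 1.98% lower. The median of the list was -0.29 at day 14, beside -0.01 over all genes. Of 22 transcription factors known to act on checkpoint genes, 4 were called higher and 8 lower at day 14, and 2 higher and 7 lower at day 10. Nfatc2, an NFAT factor activated by the T cell receptor, was lower at both days (-0.99, edgeR adjusted p = 6.63e-05 at day 14 and -0.49, adjusted p = 0.00476 at day 10), and Id2 was called lower at both days too (-0.93, adjusted p = 0.000634 and -0.46, adjusted p = 0.0223, but adjusted p = 0.0739 at day 10 on the T cell marker scale). On that scale 8 of the 22 were called higher and 2 lower at day 14, beside 30.6% and 1.31% of all genes. At day 10 it called 1 higher and 3 lower, beside 1.86% and 1.98% of all genes.

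The genes whose pattern over the 16 libraries was most like a receptor were ranked by the root mean square difference between centred log2 CPM values, among 9580 genes with a mean of at least 5 CPM. Cd160 was most like Cd226 (0.174), then Sytl2 (0.183) and Gimap4 (0.188), where Cd160 itself varied by 0.446 around its mean. Lag3 was nearest to Tmem38b (0.159), Prf1, the perforin gene (0.164), and Gbe1 (0.166), and Tigit to Cela1 (0.129), Armc3 (0.178) and Naip2 (0.180). Ctla4 was nearest to Snrnp48 (0.224), Taf1d (0.228) and 1810026B05Rik (0.231). Pdcd1, which varied little (0.184), was nearest to N6amt2 (0.0730), Sumo2 (0.0871) and Nipa2 (0.0899). Havcr2, at 0.180, was nearest to Got1 (0.122), Hacd3 (0.123) and Tmem147 (0.126), and Btla to Tcf19 (0.169), Arl5c (0.178) and Papd7 (0.179). Among the receptors themselves the smallest differences were Pdcd1 with Havcr2 (0.185) and Lag3 with Tigit (0.229), and the largest was Lag3 with Ctla4 (1.19). The value for Pdcd1 with Havcr2 was about the size of each gene's own spread around its mean. Both genes varied little, and whether they share a pattern was not tested. Lag3 varied by 0.495 and Tigit by 0.438 around their means.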

How the data were processed

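The authors deposited raw counts per gene symbol, whole numbers without normalisation. The submitters' processing notes name HISAT2 2.0.5 and build mm10. How reads were counted, on which annotation and with which strand setting, is not given in the sources used here. The kit, per the labels, was SMART-Seq mRNA LP on polyA RNA, with NovaSeq sequencing. Entries with a calendar date for a symbol (27, holding 0.234% to 0.293% of counts) were left out. Members, gene lists and tests were chosen with earlier results of these data known.

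The analysis used edgeR 4.0.16 under R 4.3.3: filter by group, TMM, and a quasi-likelihood model with robust dispersions over all 16 libraries with 1 mean per group (common biological coefficient of variation 0.198). Every adjusted p of a gene is from an edgeR quasi-likelihood F-test with Benjamini-Hochberg adjustment over the 14862 genes tested, threshold 0.05, unless stated. The SE is the log2 value's size over the square root of F. Marker sums were compared by exact permutation tests, adjusted over the lists. Pathway genes were named if among the 4 smallest adjusted p of their list in a comparison or if they share a ligand or partner with a receptor. Likeness used log2 CPM with a prior count of 2. Replicate numbers follow accession order and pair nothing. The 26 pairs of libraries within groups differed beyond sampling noise (chi-square per degree of freedom 11.2 to 347, genes with at least 20 counts), so none was a copy. Alternatives were RLE scaling, DESeq2 1.42.0, limma 3.58.1 voom, no filter, the compared groups alone, scaling on CD8 T cell genes, Rn45s as a covariate and omission of each library. The fit was tested on simulated data.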

Additional observations from a re-analysis of the deposited data

Results flagged for a closer look

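The effect of baricitinib on Cd160 differed between the days by an interaction test. The log2 difference, day 14 minus day 10, was -0.85 (edgeR adjusted p = 0.0302), from effects of -1.17 at day 14 and -0.32 at day 10. Cd160 was lower in 3 of 3 BAR libraries than in any BMF library at day 14, while the arms overlapped at day 10.

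Btla in BAR replicate 3 at day 10 stood far from the other BAR libraries of that day, at 62.4 CPM against 38.4 to 42.8 CPM, a gap of 0.815 of the group's range. In all, 14 groups were examined for a far library, and chance marks about 1 in 20. The same library had 411 CPM of B cell markers, against 26.3 to 67.6 CPM in the other 4, and the lowest CD8 T cell marker sum of its group, 4708 CPM. Without it the log2 value of Btla, BAR over BMF at day 10, was -0.02. The part of B cell RNA in this value was not tested.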

How the results depend on the processing

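Of 595 receptor values under alternatives, 575 kept their direction. On the T cell marker scale the day 14 BAR over BMF values of Pdcd1 (0.25), Tigit (0.34), Ctla4 (0.30) and Btla (0.14), the BMF day 14 over day 10 values of Pdcd1 (-0.20), Havcr2 (-0.41) and Cd160 (-0.0057), and the difference of effects of Tigit (0.11) turned. With Rn45s as a covariate, Lag3 (-0.14) and Tigit (-0.014) turned at day 10 and Ctla4 (0.074) at day 14, and with the compared groups alone Tigit turned at day 14 (0.014). Omitting single libraries, BAR over BMF values ran from -0.12 to 0.12 for Tigit and from -0.17 to 0.036 for Ctla4 at day 14, and from -0.11 to 0.019 for Havcr2 and -0.021 to 0.17 for Btla at day 10. Havcr2 in BMF libraries, day 14 over day 10, ran from -0.067 to 0.12.

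Genes called at day 10, 2145 in all, became 571 on the T cell marker scale, 86 with the Rn45s covariate and 111 without the 3 BMF day 10 libraries richest in Rn45s, an omission chosen after seeing the data. In these fits 0 receptors were called at day 10. That omission left 2459 genes called between the days in BMF libraries, against 5728, and 413 with a difference of effects, against 1535, with 0 receptors. Single omissions gave 1036 (without BMF replicate 3) to 3615 (without BMF replicate 5) genes and 1 to 2 receptors at day 10, 2119 to 3774 genes and 1 to 2 receptors at day 14, 3842 to 5624 genes between days in BAR libraries, and 679 to 2025 genes and 0 to 1 receptors for the difference of effects. At day 14, 1 receptor was called with the Rn45s covariate or with the compared groups alone. The cause was not tested. The difference of effects could not be fitted on 2 groups alone. No paired analysis was possible because the labels and columns carry no replicate numbers. Depth did not limit these genes: the lowest receptor count in a library was 982.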

Other observations

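Inhibitory receptors beyond the 7 were read as well. Of 19 listed, 16 were tested, with 3 called higher and 6 lower in BAR libraries at day 14, and 5 higher and 2 lower at day 10. Over all genes tested, 12.9% were higher and 12.2% lower at day 14, and 6.49% higher and 7.94% lower at day 10. On the T cell marker scale 6 were called higher and 1, Cd244, lower at day 14, where 30.6% of all genes were higher and 1.31% lower. At day 10 that scale called 2 higher and 2 lower, where 1.86% of all genes were higher and 1.98% lower. Cd244, a receptor for CD48, had 22.9 ± 2.07 CPM in BAR libraries and 51.9 ± 9.21 CPM in BMF libraries at day 14 (n = 3 each, log2 -1.18, edgeR adjusted p = 0.000345), but 33.6 ± 6.19 CPM in BAR libraries and 22.4 ± 4.20 CPM in BMF libraries at day 10 (n = 5 each, log2 0.58, edgeR adjusted p = 0.0146). The difference between the days was -1.76 (edgeR interaction adjusted p = 0.000587). Klrg1, a receptor for cadherins on effector cells, had 30.0 ± 7.45 CPM in BAR libraries and 57.8 ± 7.65 CPM in BMF libraries at day 10 (log2 -0.95, edgeR adjusted p = 0.00653). Klrc1, which encodes the HLA-E and Qa-1 receptor NKG2A, was lower at day 10 as well (log2 -0.45, edgeR adjusted p = 0.00649). Klrg1 (log2 -0.83, edgeR adjusted p = 0.0233) and Klrc1 (log2 -0.43, adjusted p = 0.0172) were also called lower at day 14 with TMM. On the T cell marker scale neither passed at day 14 (edgeR adjusted p = 0.106 and 0.842). Fcgr2b, an inhibitory antibody receptor of B cells and myeloid cells, was higher at day 14 (log2 1.55, edgeR adjusted p = 0.00244) in the libraries with the higher neutrophil and monocyte marker sums, whose part was not tested.

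Nr4a3, a transcription factor induced by the T cell receptor, was lower in BAR libraries at day 10 (log2 -0.91, edgeR adjusted p = 0.00229), and its difference between the days was 1.74 (edgeR interaction adjusted p = 0.00106). Tox2, a relative of the exhaustion factor Tox, was higher at day 10 (log2 0.86, edgeR adjusted p = 0.00843), with a difference of -1.40 (edgeR interaction adjusted p = 0.00940).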
